A study of Mus musculus with 6 samples.

Results

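The Adamts genes encode secreted metalloproteases that carry a disintegrin-like region and thrombospondin repeats and that cut proteins of the extracellular matrix. Bulk RNA sequencing of left ventricles, taken 4 days after injury, was used to ask how these genes responded to CCN3 after myocardial infarction (MI). All 10 Adamts genes chosen by name were measured among 15909 genes, namely Adamts1, Adamts2, Adamts4, Adamts5, Adamts7, Adamts8, Adamts9, Adamts10, Adamts12 and Adamts15. The CCN3 group (3 libraries) received recombinant human CCN3, a secreted matricellular protein, at 6 µg/kg by intraperitoneal injection, and the PBS group (3 libraries) received the vehicle. All mice were adult and had the left anterior descending artery tied off. The methods name C57/B6J mice for the longer CCN3 treatment and no strain for these ventricles. Per the labels dosing was daily for 4 days, whereas the methods start it on the day after MI. The labels call the libraries biological replicates without naming animals, so p-values measure the spread between these libraries.

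Adamts enzymes are made as inactive precursors, are activated by proprotein convertases and then act on matrix around the cell. Members of the proteoglycan-cleaving branch cut the large hyaluronan-binding proteoglycans versican and aggrecan, of which versican belongs to the provisional matrix of a healing infarct. Other members remove the amino-terminal propeptide of fibrillar procollagens, act on or bind fibrillin microfibrils, or cut cartilage oligomeric matrix protein (COMP). The 10 genes were therefore grouped into 6 proteoglycan-cleaving members (Adamts1, Adamts4, Adamts5, Adamts8, Adamts9 and Adamts15), 2 procollagen and fibrillin related members (Adamts2 and Adamts10) and 2 COMP-cleaving members (Adamts7 and Adamts12).

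Expression was given as log2 CPM (read counts scaled to library size) after removal of unwanted variation (RUV, 2 factors) by the authors, so read depth is unknown. The libraries summed to between 1001640 and 1031630 CPM, and Pearson correlations between them across genes lay between 0.989 and 0.998. Log2FC is the mean of the CCN3 libraries minus the mean of the PBS libraries. The threshold was the false discovery rate of the study, 0.2, applied to limma's adjusted p, and 82 genes (0.515% of all genes) rose while 172 (1.08%) fell. The lowest adjusted p was 0.110. Ventricular tissue was apparent from cardiomyocyte markers, of which 8 of 8 were measured and none lay at 0.

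Of the 6 proteoglycan-cleaving members, Adamts1 and Adamts15 rose in CCN3 treated ventricles, and Adamts4, Adamts5, Adamts8 and Adamts9 did not pass the test. For each of the 6 members, every CCN3 library lay above every PBS library, as was the case for 15.1% of all genes, with the opposite in 18.2%. The median Log2FC of the 6 was 0.41, beside 0.13 for Adamts2 and Adamts10, 0.14 for Adamts7 and Adamts12, and -0.0018 over all genes. In total, 2 of the 10 members rose and 0 fell, and 10 of 10 had a positive Log2FC, as 49.4% of all genes did.

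**Figure D1:**
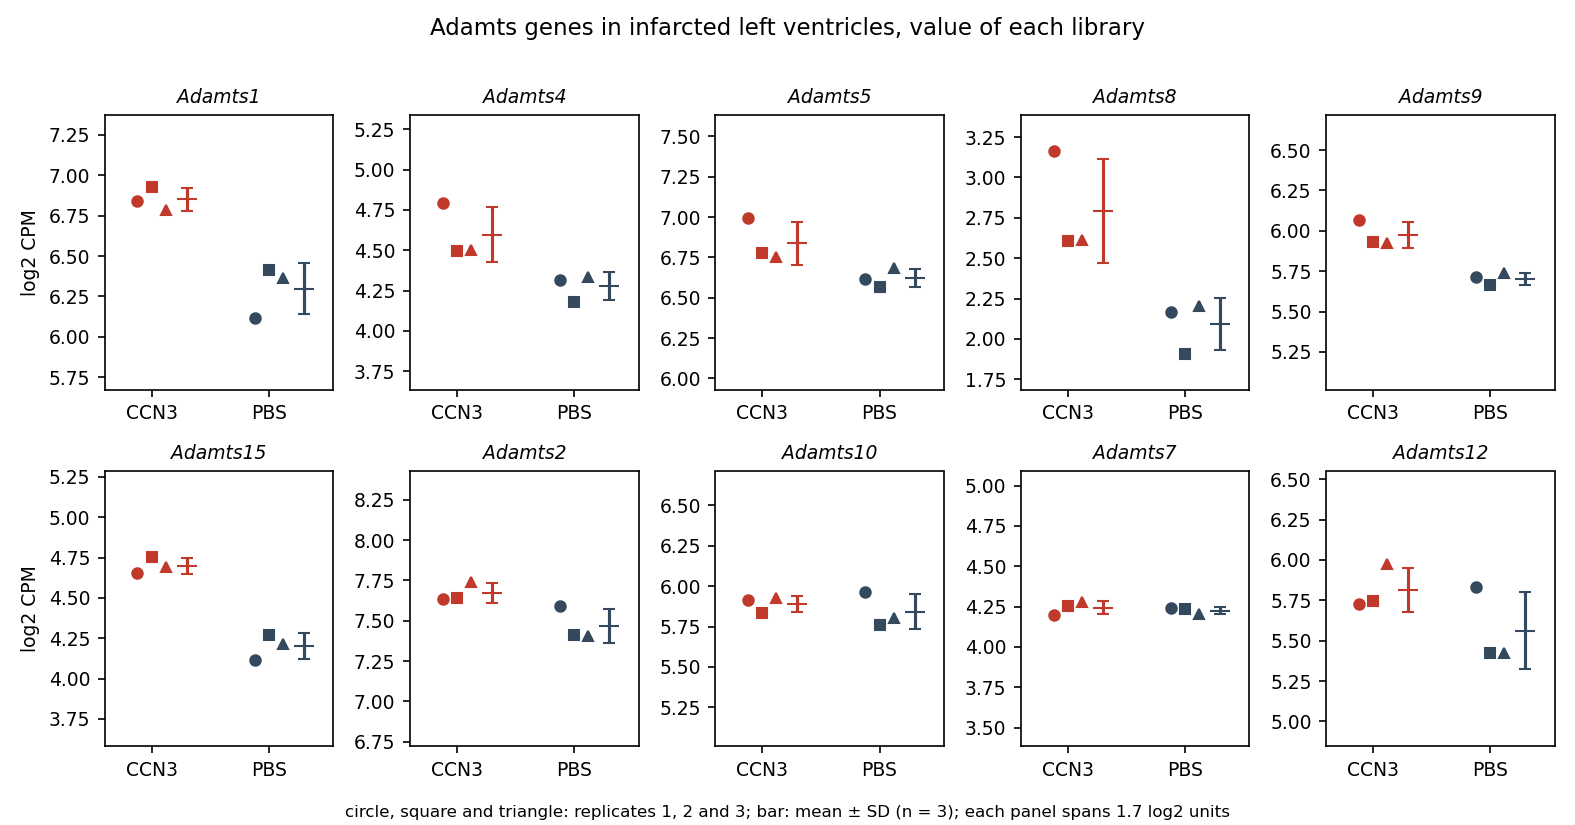
Log2 CPM of the 10 Adamts genes in each library, with CCN3 left of PBS in every panel, circles, squares and triangles for replicates 1, 2 and 3, and bars for the mean ± SD (n = 3). The groups did not overlap for Adamts1, Adamts4, Adamts5, Adamts8, Adamts9, Adamts15 and Adamts2, and they overlapped for Adamts10, Adamts7 and Adamts12.

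Adamts1 cuts versican and aggrecan and is also known for restraining angiogenesis through its thrombospondin repeats. It had 6.84, 6.93 and 6.79 log2 CPM in the CCN3 libraries, against 6.12, 6.42 and 6.36 log2 CPM in the PBS libraries. The groups stood apart, and PBS replicate 1 was the lowest of all. Adamts1 rose 1.47-fold, with a Log2FC of 0.55 ± 0.095 (SE, 95% interval 0.33 to 0.78, limma adjusted p = 0.162). Adamts15, a relative that also cuts versican, had 4.65, 4.75 and 4.69 log2 CPM in the CCN3 libraries, against 4.11, 4.27 and 4.22 log2 CPM in the PBS libraries. The CCN3 values lay close together and 0.38 above the highest PBS value. Adamts15 rose 1.41-fold, with a Log2FC of 0.50 ± 0.081 (SE, 95% interval 0.30 to 0.69, limma adjusted p = 0.149). Both genes also passed in 5 of the 6 fits that left out 1 library, and without PBS replicate 3 their adjusted p was 0.216 for Adamts1 and 0.202 for Adamts15. Neither passed when the variance prior ignored the mean-variance trend (0.424 for Adamts1 and 0.399 for Adamts15), a setting in which only 1 gene passed in all.

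The sequence before the Adamts1 start is shown because this gene passed the test, beside that of Adamts9 from the same branch and those of Adamts2 and Adamts12, which did not pass. RefSeq promoters (table build GRCm38.p6) were given for these 4 of the 10 members, and each matched GRCm39 at a single place. Bases after the first annotated start are left out, and capitals mark a TATAAA motif.
Adamts1: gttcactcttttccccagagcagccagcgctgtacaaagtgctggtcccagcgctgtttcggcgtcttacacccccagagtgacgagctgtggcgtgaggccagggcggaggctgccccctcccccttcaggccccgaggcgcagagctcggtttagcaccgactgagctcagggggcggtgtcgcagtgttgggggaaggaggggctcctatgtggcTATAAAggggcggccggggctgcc
Adamts9: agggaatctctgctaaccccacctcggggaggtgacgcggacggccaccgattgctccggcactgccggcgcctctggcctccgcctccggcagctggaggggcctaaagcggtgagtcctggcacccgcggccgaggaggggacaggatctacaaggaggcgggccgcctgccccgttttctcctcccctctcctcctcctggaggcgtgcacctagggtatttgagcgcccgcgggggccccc
Adamts2: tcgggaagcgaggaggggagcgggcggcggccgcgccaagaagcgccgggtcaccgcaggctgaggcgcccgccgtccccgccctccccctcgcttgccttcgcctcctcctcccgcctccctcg
Adamts12: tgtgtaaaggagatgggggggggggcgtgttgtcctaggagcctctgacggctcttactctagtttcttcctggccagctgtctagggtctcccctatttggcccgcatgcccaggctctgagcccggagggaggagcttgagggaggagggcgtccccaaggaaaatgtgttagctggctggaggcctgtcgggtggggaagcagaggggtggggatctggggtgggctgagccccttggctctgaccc
On GRCm39 these stretches lie at chr16:85600010-85600251 (minus strand), chr6:92920521-92920765 (minus strand), chr11:50492662-50492786 (plus strand) and chr15:11064609-11064858 (plus strand). The Adamts1 stretch holds TATAAA 32 bases before the RefSeq start, on the strand of the gene. Over 250 bases, 13% of 27025 promoters held TATAAA on either strand, 8.12% on the strand of the gene, and 2.22% on that strand within 40 to 20 bases of the start. Also searched on both strands, from a list chosen with the promoters in view, were TGANTCA (the AP-1 motif, in 6.87% of promoters), GGAATG (a TEAD motif, 12.6%), GCGNGGGCG (an Egr motif, 4.65%) and the CArG box of serum response factor (1.4%). None of these was found in the 250 bases before the start of the 4 genes, which says only that these letters are not in this window. The 4 stretches were rich in G and C, between 63.2% and 78.0% over 250 bases, against a median of 52.0% over all promoters.

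Adamts8 had the largest Log2FC of the 10 members and the lowest level. It encodes an enzyme with weak aggrecan-cleaving activity that, like Adamts1, is known to inhibit endothelial growth. It had 3.16, 2.60 and 2.61 log2 CPM in the CCN3 libraries, against 2.17, 1.91 and 2.20 log2 CPM in the PBS libraries. The groups stood apart by 0.40, and CCN3 replicate 1 was well above the others. The Log2FC was 0.70 ± 0.20 (SE, 95% interval 0.22 to 1.18), and at a limma adjusted p of 0.289 it did not pass. Without CCN3 replicate 1 it was 0.52 with an adjusted p of 0.168, and without PBS replicate 1 it was 0.74 with an adjusted p of 0.166. In those fits 501 and 951 of all genes rose, against 82 in the main fit.

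Adamts9, a large and conserved member that cuts versican and aggrecan, had 6.07, 5.93 and 5.93 log2 CPM in the CCN3 libraries, against 5.71, 5.66 and 5.74 log2 CPM in the PBS libraries. The spread within each group was small, and all CCN3 values lay at least 0.19 above the PBS values. Its Log2FC was 0.27 ± 0.068 (SE, 95% interval 0.11 to 0.43, limma adjusted p = 0.248). It passed without CCN3 replicate 1 (adjusted p = 0.133) and without PBS replicate 1 (adjusted p = 0.125), where 501 and 951 genes rose.

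The aggrecanases Adamts4 and Adamts5 did not pass. Adamts4, an inducible enzyme, had 4.79, 4.50 and 4.50 log2 CPM in the CCN3 libraries, against 4.32, 4.18 and 4.34 log2 CPM in the PBS libraries. Its highest value was again in CCN3 replicate 1, and the groups did not overlap (Log2FC 0.32 ± 0.11 SE, 95% interval 0.052 to 0.58, limma adjusted p = 0.376). Adamts5, the major aggrecanase of mouse cartilage, had 6.99, 6.78 and 6.75 log2 CPM in the CCN3 libraries, against 6.61, 6.57 and 6.68 log2 CPM in the PBS libraries. The groups lay 0.067 apart, less than the range of 0.24 within the CCN3 libraries (Log2FC 0.22 ± 0.084 SE, 95% interval 0.015 to 0.42, limma adjusted p = 0.435). Without CCN3 replicate 1 the Log2FC of Adamts5 was 0.14.

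The procollagen and fibrillin related members were examined next. Adamts2, the main enzyme that removes the amino-terminal propeptide of type I and type III procollagen, had 7.63, 7.64 and 7.74 log2 CPM in the CCN3 libraries, against 7.59, 7.41 and 7.41 log2 CPM in the PBS libraries. The groups were separated by only 0.041, between CCN3 replicate 1 and PBS replicate 1. The Log2FC was 0.20 ± 0.076 (SE, 95% interval 0.019 to 0.38) and did not pass (limma adjusted p = 0.420). Without PBS replicate 1, where 951 genes rose, it was 0.26 with an adjusted p of 0.0958. Adamts10, which binds fibrillin and whose loss in humans causes short stature and eye defects, had 5.91, 5.83 and 5.93 log2 CPM in the CCN3 libraries, against 5.96, 5.76 and 5.80 log2 CPM in the PBS libraries. PBS replicate 1 was the highest of the 6 libraries and the groups overlapped. The Log2FC was 0.050 ± 0.077 (SE, 95% interval -0.13 to 0.23, limma adjusted p = 0.873).

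The COMP-cleaving members did not pass. Adamts7, also known from vascular smooth muscle, had 4.20, 4.26 and 4.28 log2 CPM in the CCN3 libraries, against 4.24, 4.23 and 4.20 log2 CPM in the PBS libraries. The values of both groups were mixed, with a Log2FC of 0.018 ± 0.076 (SE, 95% interval -0.16 to 0.20, limma adjusted p = 0.965). Adamts12 had 5.73, 5.75 and 5.97 log2 CPM in the CCN3 libraries, against 5.84, 5.43 and 5.42 log2 CPM in the PBS libraries. PBS replicate 1 lay among the CCN3 libraries and the other PBS libraries well below them. The Log2FC was 0.25 ± 0.14 (SE, 95% interval -0.073 to 0.58, limma adjusted p = 0.583). Without PBS replicate 1, where 951 genes rose, it was 0.39 with an adjusted p of 0.118.

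**Figure D2:**
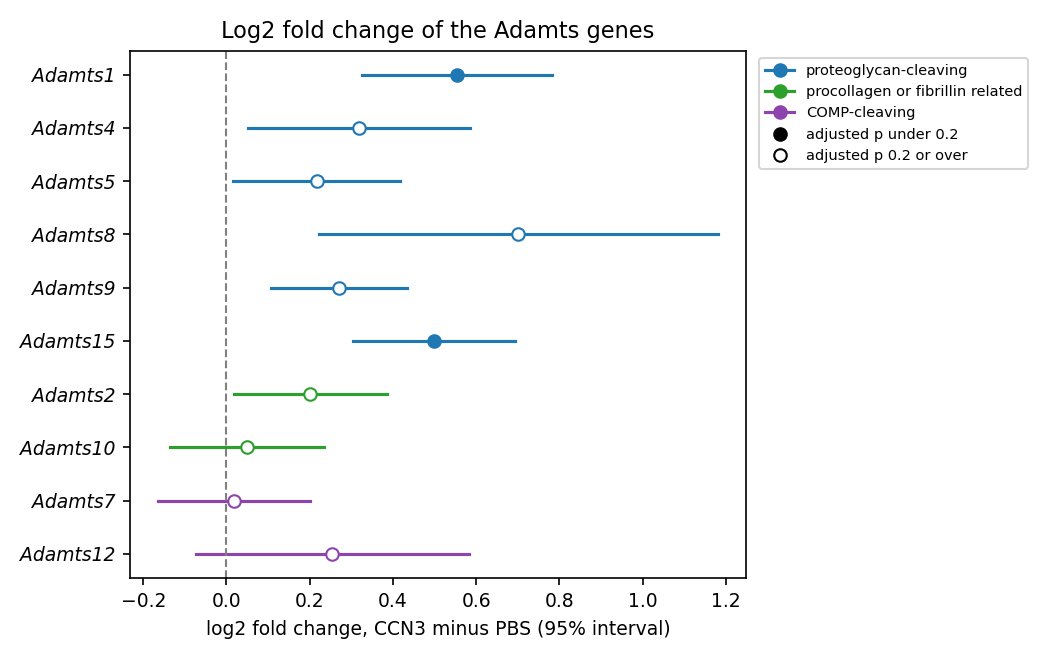
Log2FC of the 10 members with 95% intervals from limma, where filled points passed at an adjusted p under 0.2 and the dashed line is the median of all genes. The intervals of the 6 proteoglycan-cleaving members and of Adamts2 lie above 0, and those of Adamts10, Adamts7 and Adamts12 include 0. They are not adjusted for the number of genes, and 1694 of all 15909 genes had an unadjusted limma p under 0.05 in either direction.

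The proteoglycan-cleaving members were then set against Adamts2 and Adamts10 within each library, a comparison that does not depend on the scaling of a library. The mean log2 CPM of the 6 members minus that of Adamts2 and Adamts10 was -1.35, -1.49 and -1.62 in the CCN3 libraries, against -1.94, -1.75 and -1.68 in the PBS libraries. The groups did not overlap, although CCN3 replicate 3 lay only 0.059 from PBS replicate 3. The mean difference was 0.30 on the log2 scale, with SDs of 0.14 in the CCN3 libraries and 0.13 in the PBS libraries. In summed CPM, the 6 members reached 371, 348 and 333 CPM in the CCN3 libraries, against 261, 272 and 282 CPM in the PBS libraries, so the groups stood apart. The sum of Adamts2 and Adamts10 was 258, 257 and 275 CPM in the CCN3 libraries, against 255, 224 and 226 CPM in the PBS libraries. Those groups stood apart by only 1.47 CPM, between CCN3 replicate 2 and PBS replicate 1.

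The libraries did not vary in the same way for all members. Within the CCN3 libraries, replicate 1 was the highest for Adamts4, Adamts5, Adamts8 and Adamts9, replicate 2 for Adamts1 and Adamts15, and replicate 3 for the 4 other members. Within the PBS libraries, replicate 1 was the lowest for Adamts1 and Adamts15 but the highest for Adamts2, Adamts7, Adamts10 and Adamts12, whereas replicate 2 was the lowest for Adamts4, Adamts5, Adamts8 and Adamts9. The removal of the RUV factors left only 2 dimensions of variation within groups, so the profiles of different genes are less free to differ than those of unadjusted values.

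**Figure D3:**
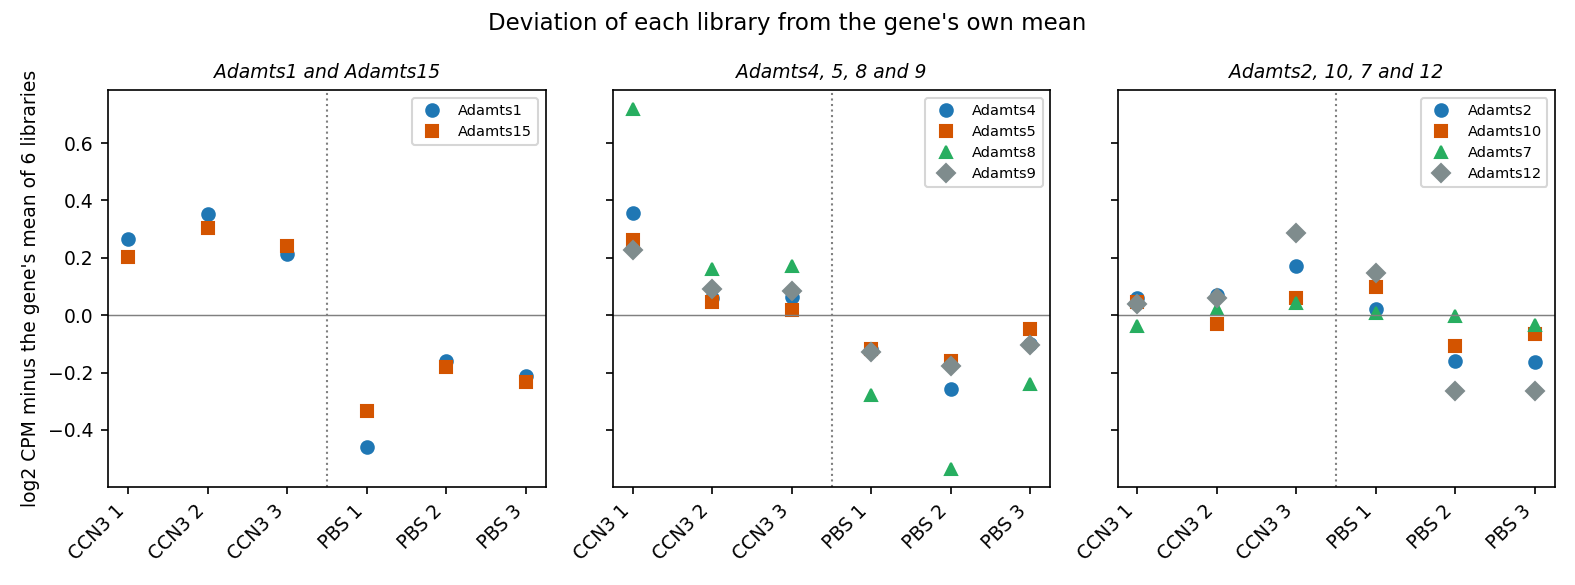
Log2 CPM of each library minus the mean of the gene over 6 libraries, for Adamts1 and Adamts15 (left), the other proteoglycan-cleaving members (middle) and the remaining members (right). Adamts1 and Adamts15 share a low PBS replicate 1, and the middle genes share a high CCN3 replicate 1.

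Likeness to Adamts1 was measured as the root mean square (RMS) difference between profiles centred on their own mean over the 6 libraries. Among 12611 other genes, Plac9a, Sik1, Col11a1, Serinc2 and Clca3a1 were the closest, with RMS differences between 0.029 and 0.045 on the log2 scale. Adamts15 came next, at an RMS difference of 0.062, and the next member, Adamts9, ranked 247. Of these genes, Sik1, a salt-inducible kinase, had 5.71, 5.78 and 5.60 log2 CPM in the CCN3 libraries, against 4.91, 5.27 and 5.23 log2 CPM in the PBS libraries (Log2FC 0.56, limma adjusted p = 0.191). Its groups stood apart with PBS replicate 1 the lowest, which follows from its choice by likeness to Adamts1. Of the other close genes, Col11a1 (limma adjusted p = 0.145) and Clca3a1 (0.162) passed, while Plac9a (0.302) and Serinc2 (0.371) did not. For these too a Log2FC near that of Adamts1 is built into the choice, so their passing is no separate result. Sik1 did not pass without CCN3 replicate 2 (adjusted p = 0.228), CCN3 replicate 3 (0.212) or PBS replicate 3 (0.245), nor with libraries centred on their medians (0.207).

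The positions of the members were read from the annotation. On GRCm39 (GENCODE annotation), Adamts1 lies on chromosome 16 from 85590579 to 85600009 and Adamts5 from 85653061 to 85698716, on the same strand, with 53051 bases and 0 protein-coding genes between them. Adamts15 (chromosome 9, 30810451 to 30833863) and Adamts8 (30853809 to 30875134) lie head to head, 19945 bases apart, also with 0 protein-coding genes between them. By RMS difference Adamts15, on another chromosome, was nearer to Adamts1 than Adamts5 beside it, which ranked 618. Adamts1 minus Adamts5 was -0.15, 0.15 and 0.038 on the log2 scale in the CCN3 libraries, against -0.50, -0.15 and -0.32 in the PBS libraries. These values did not overlap, but CCN3 replicate 1 and PBS replicate 2 lay only 0.0038 apart. By structure, Adamts1, Adamts4, Adamts5, Adamts8 and Adamts15 have 8 or 9 exons, Adamts9 has 40, and the other 4 members have between 22 and 25.

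Levels were compared between members as log2 CPM per kb of the canonical transcript (means of n = 3 libraries). In the CCN3 libraries the order was Adamts2 (4.79), Adamts1 (4.52), Adamts10 (3.84), Adamts5 (3.41), Adamts9 (2.96), Adamts12 (2.71), Adamts4 (2.46), Adamts15 (2.10), Adamts7 (1.80) and Adamts8 (0.91). In the PBS libraries it was Adamts2 (4.59), Adamts1 (3.97), Adamts10 (3.78), Adamts5 (3.19), Adamts9 (2.69), Adamts12 (2.46), Adamts4 (2.14), Adamts7 (1.78), Adamts15 (1.60) and Adamts8 (0.21). Adamts15 and Adamts7 thus changed places, and the other members kept theirs. SDs lay between 0.021 and 0.32. Neighbours whose libraries overlapped were Adamts12 and Adamts4 in the CCN3 group, and Adamts1 and Adamts10, and Adamts9 and Adamts12, in the PBS group. The order depends on the length used: per kb of coding sequence 7 of the 10 members had another rank in the PBS group, with Adamts5 above Adamts1, and Adamts15 lay above Adamts7 in both groups, so that no members changed places between the groups.

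**Figure D4:**
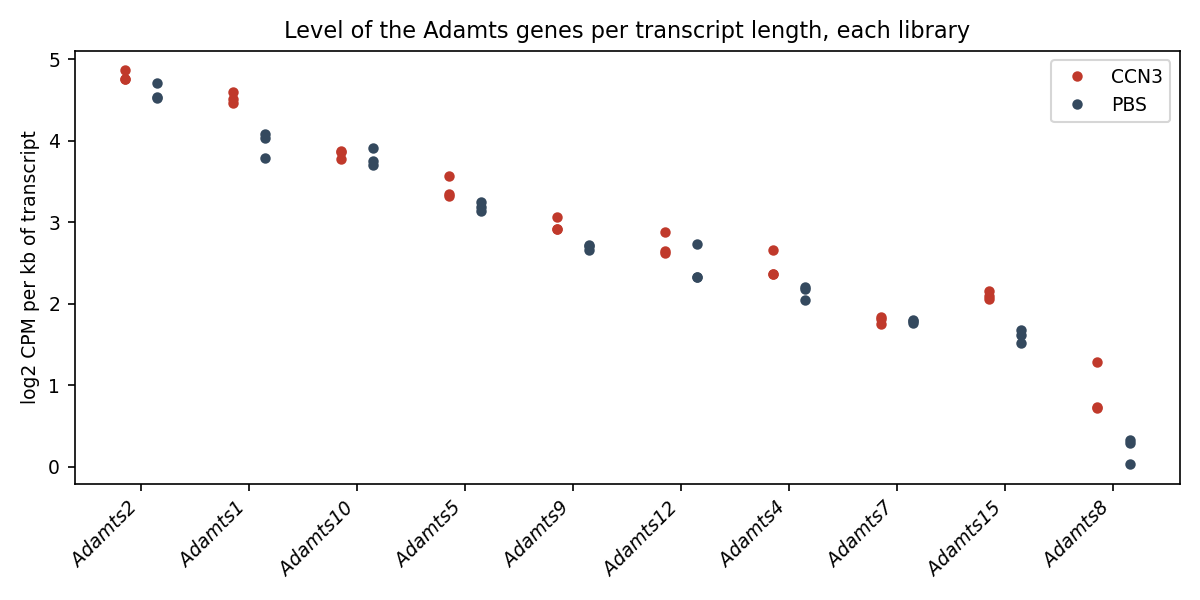
Log2 CPM per kb of canonical transcript for each library of the CCN3 group (left of each pair) and the PBS group, ordered by the PBS mean. Adamts2 lies highest in both groups and Adamts8 lies at the bottom, at a mean of 0.91 in the CCN3 libraries and 0.21 in the PBS libraries.

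Other genes of the family gave a wider view of the same roles. Of 8 further Adamts genes measured (Adamts18 was not analysed here), 0 passed, 4 had a positive Log2FC and the median was 0.027. Among them Adamts16 (Log2FC 0.44 ± 0.22 SE) and Adamts20 (0.32 ± 0.18), the closest relative of Adamts9, had the smallest p. Both lay low, Adamts16 at means of 1.26 log2 CPM in the CCN3 libraries and 0.82 in the PBS libraries. Adamts20 was at 1.53 and 1.21 log2 CPM. The other procollagen and fibrillin enzymes, named by role after their values were seen, had a Log2FC of 0.11 for Adamts3, -0.092 for Adamts14, -0.0033 for Adamts6 and 0.057 for Adamts17. The last 3 changed sign when some libraries were left out. Over these 4 with Adamts2 and Adamts10, none of which passed, the median was 0.054, beside 0.32 for the proteoglycan-cleaving members with Adamts20. Adamts20 too was added after its value was seen, so the wider groups are no independent check of the first ones. Among 7 Adamts-like genes, which lack the protease domain, 1 rose and 0 fell (median 0.21). This was Adamtsl2, which binds fibrillin and a latent TGF-beta binding protein, at 5.64, 5.47 and 5.47 log2 CPM in the CCN3 libraries, against 4.97, 4.90 and 4.99 log2 CPM in the PBS libraries. The groups lay far apart, with a Log2FC of 0.57 ± 0.078 (SE, limma adjusted p = 0.123), and it passed in each of the 6 fits that left out 1 library.

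Substrates of the enzymes were examined in the same fit. Of 5 measured genes for hyalectans, link proteins and the hyaluronan receptor Cd44, 0 passed. Hapln3 (Log2FC -0.62 ± 0.37 SE) and Cd44 (-0.11 ± 0.067) had a negative Log2FC. Hapln3 averaged only -1.50 log2 CPM in the CCN3 libraries and -0.88 log2 CPM in the PBS libraries. Vcan, which encodes versican, had a Log2FC of 0.20 ± 0.083 (SE, limma adjusted p = 0.462), and Vcan minus Adamts1 averaged 0.83 ± 0.15 on the log2 scale in the CCN3 libraries and 1.19 ± 0.26 in the PBS libraries (SD, n = 3 each). That difference was lower in every CCN3 library than in every PBS library, by as little as 0.013. Acan, which encodes aggrecan, averaged 1.03 log2 CPM in the CCN3 libraries and 0.88 log2 CPM in the PBS libraries. Its Log2FC was 0.15 ± 0.38 (SE), and the sign changed when CCN3 replicate 1 or PBS replicate 2 was left out. The link protein gene Hapln1 had 0.43 ± 0.25, at means of 0.19 log2 CPM in the CCN3 libraries and -0.24 in the PBS libraries. Of 9 fibrillar procollagen genes, Col11a1 rose (0.54 ± 0.084 SE) and 0 fell, with a median of 0.25, while Col1a1 (0.23 ± 0.11) and Col3a1 (0.093 ± 0.16) did not pass. The enzymes that trim the other end of procollagen and their enhancers had 0 of 5 past the test, with Pcolce at 0.24 ± 0.069 (SE) and Tll2 at -0.81 ± 0.20.

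Of 12 fibrillin microfibril genes, 3 rose and 0 fell (median 0.28). These were Eln, which encodes elastin (Log2FC 0.54 ± 0.11 SE), Ltbp2, a latent TGF-beta binding protein (0.50 ± 0.11), and Mfap5, a microfibril glycoprotein (0.37 ± 0.070). None of the 3 passed without PBS replicate 3 (adjusted p between 0.257 and 0.293) or without CCN3 replicate 3 (between 0.224 and 0.257). Mfap5 is also counted among the fibroblast markers given later. Fbn1, which encodes the main fibrillin, had 0.31 ± 0.12 and did not pass. Of 5 genes for COMP and thrombospondins, Thbs4 rose (1.02 ± 0.21 SE), though not without PBS replicate 3 (adjusted p = 0.281) or CCN3 replicate 3 (adjusted p = 0.253), and Comp itself had 0.22 ± 0.090 and did not pass. Without PBS replicate 1, Vcan, Col1a1, Pcolce, Fbn1 and Comp rose and Tll2 fell, at limma adjusted p between 0.0696 for Pcolce and 0.172 for Comp. In that fit 951 of all 15909 genes rose and 1268 fell, against 82 and 172 in the main fit. Tll2 also fell without CCN3 replicate 1 (0.107) or PBS replicate 2 (0.174).

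Inhibitors and clearance genes did not pass in 7 of 7 cases, with a median of 0.078. Timp3, the chief tissue inhibitor of the aggrecanases, had a Log2FC of -0.15 ± 0.091 (SE, limma adjusted p = 0.627), and Timp1 had 0.078 ± 0.069. Lrp1, an endocytic receptor that clears Adamts4 and Adamts5, had 0.20 ± 0.096 and A2m, which encodes a broad protease trap, had 0.75 ± 0.36. A2m lay low, at a mean of 1.11 log2 CPM in the CCN3 libraries and 0.35 in the PBS libraries. The Log2FC of these genes moved with single libraries. Without CCN3 replicate 1, where 501 genes rose, Timp1 was at 0.025, Timp3 at -0.080 and Lrp1 at 0.28 (adjusted p = 0.154). Without PBS replicate 1 A2m was at 0.40. Of 9 genes for activation and secretion of Adamts enzymes, 1 fell and 0 rose (median 0.10). The proprotein convertase gene Pcsk6 fell, with a Log2FC of -0.45 ± 0.053 (SE, limma adjusted p = 0.119), and it fell in each fit that left out 1 library, while Furin, the convertase best known to activate Adamts precursors, had 0.15 ± 0.060 and did not pass.

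**Figure D5:**
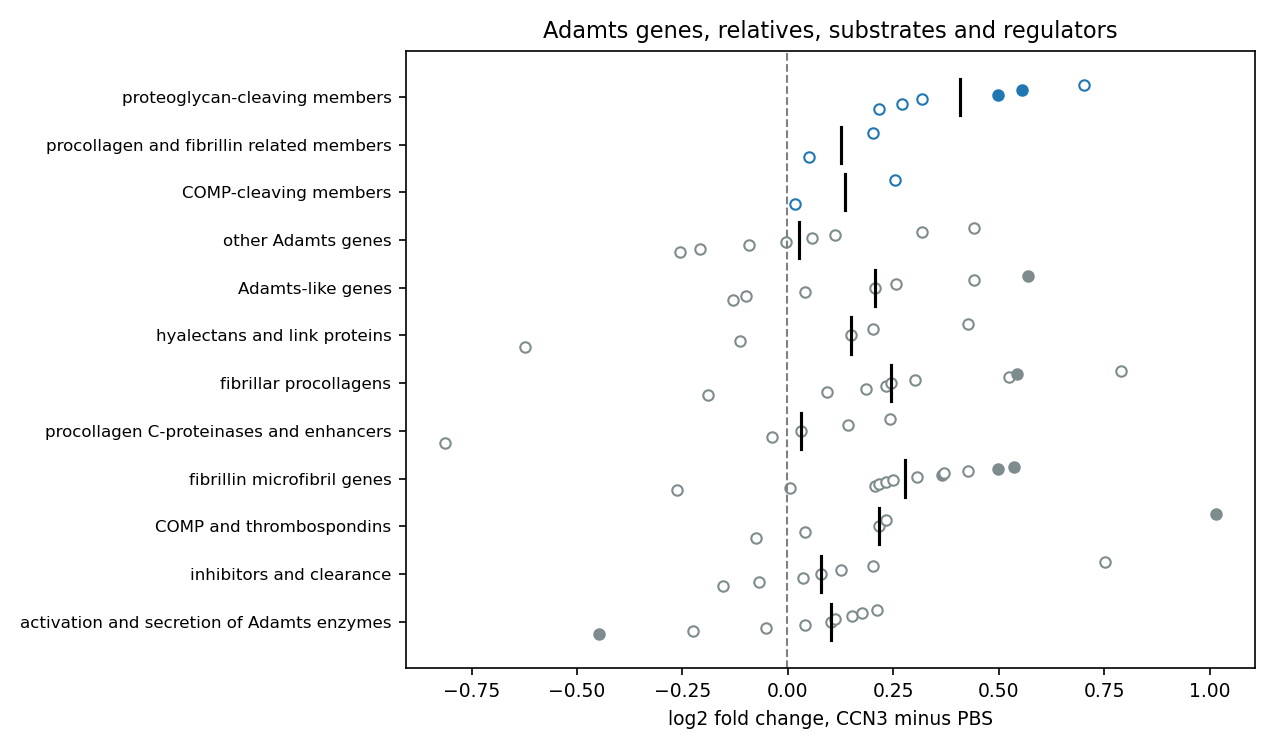
Log2FC of each measured gene by list, with members in blue, other genes in grey, filled points for an adjusted p under 0.2 in limma, black bars for list medians and a dashed line for the median of all genes. All proteoglycan-cleaving members lie to the right of 0.20, whereas the further Adamts genes spread from -0.26 to 0.44.

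In bulk tissue, fewer cells of a type and less RNA per cell cannot be told apart, so marker genes of the cells in the ventricle were summed beside these results. Fibroblast markers (8 measured, 1 rose, 0 fell) summed to 6253 to 6887 CPM in the CCN3 libraries, against 6158 to 6779 CPM in the PBS libraries. This list was mixed in direction. It includes the procollagen gene Col1a1, which had the highest level of the 8, at means of 11.79 log2 CPM in the CCN3 libraries and 11.55 in the PBS libraries. The sum thus leans on Col1a1, and its overlap does not describe the other markers. A sum without Col1a1 was not taken. In 4 of the 8, Col1a1 among them, every CCN3 library lay above every PBS library, and in Gsn (Log2FC -0.59) and Dcn (-0.10) every one lay below. Lum (-0.17) and Dpt (-0.10) also had a negative Log2FC, with overlap. Myofibroblast markers (6, 1 rose, 0 fell) summed to 6023 to 6884 CPM in the CCN3 libraries, against 5499 to 7414 CPM in the PBS libraries. Endothelial markers (8, 0 passed) summed to 1194 to 1363 CPM in the CCN3 libraries, against 1301 to 1387 CPM in the PBS libraries. These 3 sums overlapped between the groups. Cardiomyocyte markers (8, 1 fell, 0 rose) had a lower sum, at 30780 to 33524 CPM in the CCN3 libraries, against 34090 to 40266 CPM in the PBS libraries. Single markers differed in direction, with 3 of the 8 at a positive Log2FC, among them Actc1 (0.30) and Ryr2 (0.25), whose groups did not overlap. In 4 of the 8 (Myl2, Pln, Tnni3 and Mb) every CCN3 library lay below every PBS library, and the list median was -0.24. Mural cell markers (7, 2 fell, 0 rose) also had a lower sum, at 1256 to 1366 CPM in the CCN3 libraries, against 1588 to 1874 CPM in the PBS libraries. Here Pdgfrb (0.13, without overlap) and Cspg4 (0.21) had a positive Log2FC and Notch3 was at -0.014. In 3 of the 7 (Rgs5, Kcnj8 and Abcc9) every CCN3 library lay below every PBS library. The markers that passed were Mfap5 (fibroblast), Lox (myofibroblast, Log2FC 0.42), Tnni3 (cardiomyocyte, -0.44), and Kcnj8 (-0.54) and Abcc9 (-0.51) among the mural genes, all named after their values were seen. Macrophage (8), neutrophil (5), T cell (5) and endocardial or epicardial (5) markers had 0 genes past the test. Of these lists only the T cell sum stood apart, at 6.62 to 7.37 CPM in the CCN3 libraries against 8.95 to 10.1 CPM in the PBS libraries. Its largest part was Cd4 (means of 2.14 log2 CPM in the CCN3 libraries and 2.62 in the PBS libraries). Cd3e, Cd3d, Cd3g and Cd8a averaged below 0 log2 CPM in both groups, and Cd3e and Cd3g overlapped between the groups. No defining marker was at 0. The part of these shifts in the Adamts values was not tested.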

How the data were processed

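The authors prepared stranded mRNA libraries from left ventricles, 3 from CCN3 treated and 3 from PBS treated mice, assigned reads to GRCm39 transcripts with Salmon 1.4.0 and used edgeR, as the submitters' processing notes record. The authors deposited log2 CPM values with 2 RUV factors removed. How low counts were filtered is not stated here. The authors' own fold changes and p-values were deposited too and were not used. Groups came from the labels.

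After group means were subtracted, 2 of 4 dimensions of library space were empty (singular value below 1e-06 of the largest) and were added to the model with treatment. By construction they are orthogonal to treatment, so any correlation of the authors' factors with treatment is missing from the SEs and p-values. This left 2 residual degrees of freedom, and the prior added 4.47. All 15909 genes were fitted in limma 3.58.1 (R 4.3.3) with a trended empirical Bayes prior, and two-sided p-values were adjusted over them by Benjamini-Hochberg. Since the removal lowers replicate spread, SDs and p-values describe only what remains. A trial of these steps on made-up values cannot show whether the authors' factors correlated with treatment. No outcome of that trial is given, and it does not bear on that limit of the SEs and p-values. Members, groups and lists were chosen with earlier results of these data known, so no p over a list is given. Of each list other than the markers, which are given by counts and sums, the passing genes were named, or else those with the smallest p, together with substrates and inhibitors chosen by role. Lengths and positions came from GENCODE.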

Additional observations from a re-analysis of the deposited data

How the results depend on the processing

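All 10 members kept a positive Log2FC in each of 13 alternatives, and 0 members fell in any. Changes to the variance prior, the covariates or the gene filter leave each Log2FC as it is, so they could not turn a sign. Centring and log2(CPM + 1) changed the values of the members only a little. The sign was therefore tried mainly by the 6 fits that left out 1 library. With 82 genes higher and 172 lower in the main model, the count of members that rose was 2. It was also 2 with libraries centred on their medians, a filter at a mean log2 CPM of 1, log2(CPM + 1) or a robust prior (the last added after the data were seen). With libraries centred, 104 genes fell. Without a mean-variance trend, 0 members and 0 genes rose and 1 gene fell, while 1509 genes had an unadjusted p under 0.05. With treatment only, 7 members and 2138 genes rose and 2633 genes fell, since that model counts the removed dimensions as residual freedom. Leaving out 1 library gave between 0 and 6 members higher, between 22 and 951 genes higher and between 28 and 1268 genes lower. The lowest of these counts came without PBS replicate 3 and the highest without PBS replicate 1.

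Same-numbered libraries had no common pattern of deviation, with correlations of 0.127, 0.968 and -0.977 for replicates 1, 2 and 3. Only 2 dimensions of variation were left within groups, so these values cannot decide whether the numbers pair libraries. The replicate block, in place of the empty dimensions, gave 7 members and 2686 genes higher and 3246 genes lower. Per kb of coding sequence, 7 members changed rank by level. Single values turned sign for genes that never passed. With 1 library left out, Acan ran between -0.23 (without CCN3 replicate 1) and 0.35, and was at -0.042 without PBS replicate 2. Adamts6 ran between -0.062 and 0.071 and was at 0.012 with libraries centred. Adamts14 ran between -0.20 and 0.063, and Adamts17 between -0.13 and 0.36. Read depth is unknown, so counting error at low levels, as for Adamts8, Adamts16, Adamts20, Acan, Hapln1, Hapln3 and A2m, cannot be given.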
